A study of Mus musculus with 12 samples.

Results

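The genes described here are the targets and regulators of the tumour suppressor p53, followed in growth-arrested mouse embryonic fibroblasts (MEFs) with 2 different mutations of Rb1. A list of 32 genes, with the CDK inhibitors left out, was matched by symbol to the probe sets of the array, and 30 of the 32 had a probe set annotated to their symbol alone, among 19938 genes measured in that way. Each of the 30 had 1 such probe set. Trp53 itself and Bax were not analysed here, nor was Cdkn1a, whose probe set is annotated to a second gene as well. The members were divided by role into 12 apoptosis genes, 12 arrest or repair genes and 6 feedback and regulator genes.

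The 12 arrays, 1 per sample, formed 4 groups of 3: S/S mutant MEFs, the Rb1 +/+ MEFs matched to them, L/L mutant MEFs, and the Rb1 +/+ MEFs matched to those. The S/S cells and their wild type are called the S set, and the L/L cells and theirs the L set. All 4 groups had been grown in 10% serum to passage 4 and then held in 0.1% serum for 72 h. The labels give the age of the cells only as embryonic fibroblasts and do not define the alleles, and whether the replicates came from separate embryos is not stated, so each p-value speaks for these samples only, and their spread may be technical. In published work on mouse lines of these names, the S allele disrupts a contact of the retinoblastoma protein with E2F1 and the L allele its cleft for proteins with an LXCXE motif.

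p53 is a transcription factor that is held low in unstressed cells by the ubiquitin ligase Mdm2 and its relative Mdm4. When it accumulates, it activates genes for cell death, for cell cycle arrest and DNA repair, and for its own restraint, Mdm2 among them. The retinoblastoma and p53 pathways meet in cell cycle arrest, and E2F factors released from the retinoblastoma protein can also raise p53 activity in cultured fibroblasts.

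The values are deposited log2 RMA values, normalized between arrays by the authors, so a difference of 1 is a 2-fold difference. Differences were tested with limma in 1 model of all 12 arrays, and a gene passed at a Benjamini-Hochberg adjusted p under 0.05 over all 19938 genes. S-set wild-type array 1 stood apart, with a residual SD of 0.325 against 0.0933 to 0.193 in the other 11 arrays, and an interquartile range of 3.10 against at least 3.39. Results of the mutant comparisons that rest on it are therefore also given without both S-set arrays numbered 1, an S/S and a wild-type array. S/S array 1 itself did not stand apart (residual SD 0.169), and the numbers were not taken to pair the samples. The S/S medians are therefore also given without the wild-type array alone. Array 1 of L/L and array 1 of its wild type had Y-linked RNA and low Xist RNA, as male cells do, and the other 10 arrays did not. The fibroblast markers Col1a1 (12.2 to 13.1) and Vim (13.3 to 13.7) were high in every array, while the epithelial marker Epcam read 5.30 to 5.82 and the endothelial marker Pecam1 5.69 to 6.12. Other markers of those cell types read higher, such as epithelial Krt8 (7.75 to 8.61) and endothelial Flt1 (8.71 to 9.60) and Eng (9.85 to 10.58). Rb1 RNA read 9.72, 9.58 and 9.35 in S/S against 8.34, 8.83 and 8.89 in its wild type, and 9.39, 9.36 and 9.23 in L/L against 9.23, 9.05 and 8.61 in its wild type. Rb1 did not pass in S/S (adjusted p = 0.0976) or in L/L (adjusted p = 1).

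No member passed alone in either mutant, yet many leaned the same way. The members and lists were chosen with earlier results of these data known. Their counts beside the shares of all genes, here and below, are therefore descriptions and no independent support. In S/S, 0 of 30 members passed with limma, as did 0.12% of all genes, while 11 of 30 were higher at an unadjusted p under 0.05 (5.21% of all genes) and 0 were lower (4.93% of all genes). In L/L, 0 of 30 passed (0.0401% of all genes), 6 were higher at an unadjusted p under 0.05 (2.68% of all genes) and 0 were lower (0.582%). The 6 of L/L were Pml, Tnfrsf10b, Pidd1, Btg2, Perp and Fas, and all 6 were among the 11 of S/S, which is 100% of the L/L genes and 54.5% of the S/S genes. Of all genes, 0.461% were higher at this threshold in both mutants. The comparisons have separate wild types but share 1 estimate of the spread.

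The median difference of the 30 members was 0.23 in S/S, against −0.04 over all genes, and 0.10 in L/L, against 0.02 over all genes. Without both S-set arrays numbered 1 the S/S median was 0.1459, and without the wild-type one of them alone it was 0.1438. In S/S, 23 of 30 members had a difference above 0 (42.4% of all genes), and in L/L 25 of 30 (55.9% of all genes). The S/S share of 76.7% was not particular to the members. It was 76% of 25 upstream regulators of p53, 73.9% of 23 further p53 targets and 66.7% of 12 fibroblast markers. Endothelial markers stood at 40% and epithelial markers at 12.5%. In L/L these lists stood, in that order, at 44%, 65.2%, 16.7%, 70% and 62.5%. All genes include dim ones, while no member had a mean under 6. All 3 S/S arrays lay above all 3 wild-type arrays in 10 members (5.49% of all genes) and below them in 0 (6.29%). The same held upwards for 9 members in L/L (9.71% of all genes) and downwards for 1, Sesn1 (5.1%). The heat map of the members shows where the single arrays stood.

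**Figure D1:**
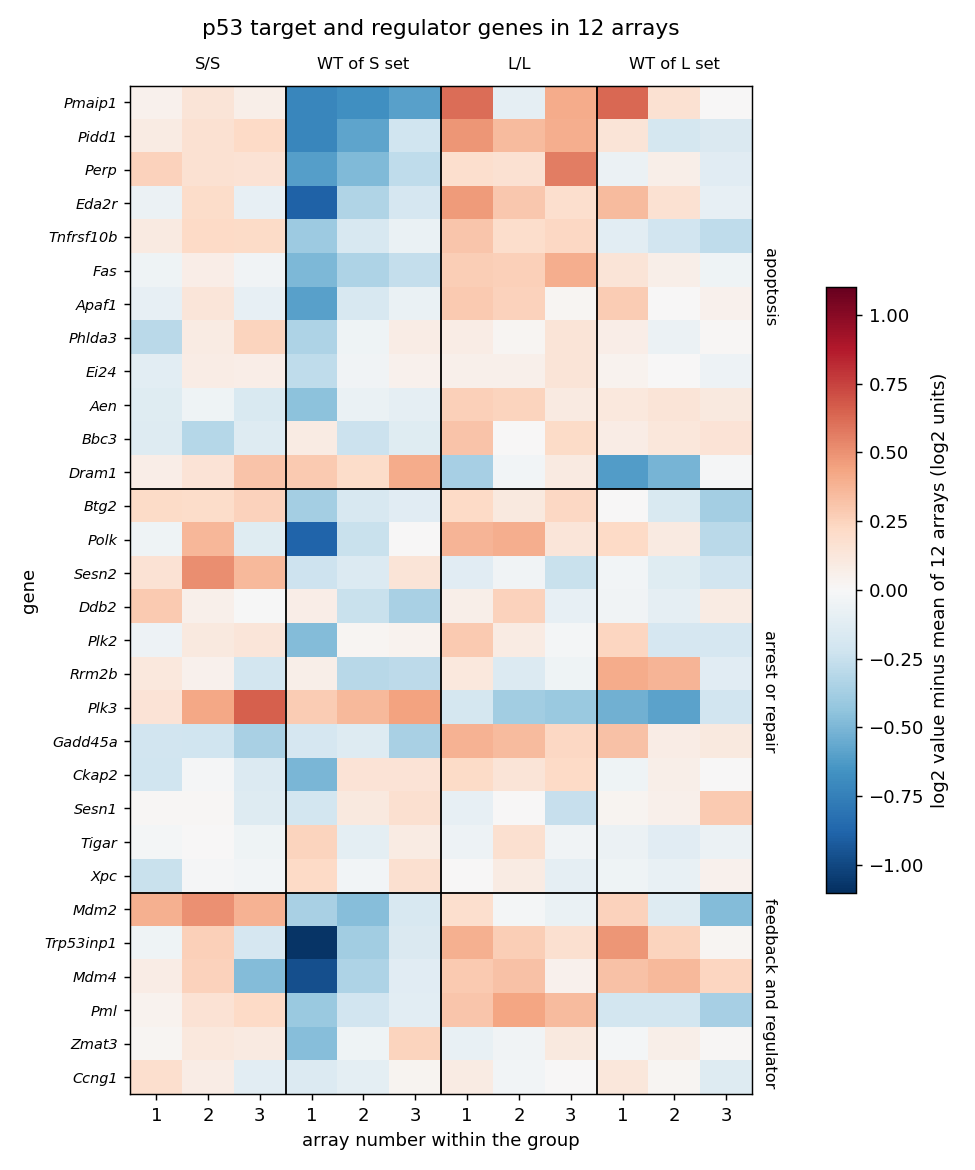
Log2 value of each of the 30 members minus its mean over 12 arrays (colour scale in log2 units), with genes in rows by role and arrays in columns by group. The lowest cells lie in S-set wild-type array 1, and the 3 S/S arrays are above all 3 wild-type arrays in 10 of the 30 rows.

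The promoters of the members were searched for p53 sites, which are no independent feature, since genes become known as p53 targets largely through such sites. RefSeq promoter windows (GRCm38.p6, 250 bases before to 50 after the transcription start) were given for 22 of the 30 members, in 28 windows, and were searched on both strands for the p53 decamer, the 10-letter unit of the p53 response element. At least 1 decamer stood in 10 of the 28 windows (35.7%), against 8.36% of 32851 promoter windows of all genes, or in 9 of 22 genes (40.9%), against 9.55% of all genes. A match is a description of the letters and not a shown binding site. The E2F site, searched as TTTCCCGC, TTTCGCGC, TTTGCCGC or TTTGGCGC on both strands, stood in 0 of the 28 windows and in 2.26% of all windows. It therefore overlapped no decamer in the members.

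Of the 11 genes with an unadjusted p under 0.05 in S/S, 7 had a window, and Mdm2 and Pml of these had a decamer, and their windows are printed because these genes lead the S/S feedback group and the L/L comparison. The Mdm2 window is chr10:117710709-117711008 on the minus strand, with the decamer beginning at −186 from the start site, and the Pml window is chr9:58249737-58250036 on the minus strand, with it beginning at −144. Capitals mark the decamer, and both run 5′ to 3′ along the gene.
Mdm2: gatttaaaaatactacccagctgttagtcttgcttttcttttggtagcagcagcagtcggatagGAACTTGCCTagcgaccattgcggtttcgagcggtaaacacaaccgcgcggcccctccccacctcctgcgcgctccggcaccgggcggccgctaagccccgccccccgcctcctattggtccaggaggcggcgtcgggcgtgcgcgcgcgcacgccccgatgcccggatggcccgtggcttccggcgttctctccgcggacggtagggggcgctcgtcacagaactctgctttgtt
Pml: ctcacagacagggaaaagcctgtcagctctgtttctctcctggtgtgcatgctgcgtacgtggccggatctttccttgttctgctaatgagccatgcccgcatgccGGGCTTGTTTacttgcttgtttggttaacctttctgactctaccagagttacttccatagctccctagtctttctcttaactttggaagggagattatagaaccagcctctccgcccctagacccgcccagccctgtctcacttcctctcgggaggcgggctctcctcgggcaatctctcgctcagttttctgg

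The decamers of the other 7 genes are shown for comparison, each with 10 bases on either side, in 30-base stretches that run 5′ to 3′ along the gene. They lie at chr6:67037428-67037457 for Gadd45a (minus strand), chr7:78895927-78895956 for Aen (plus), chr8:22186003-22186032 for Ckap2 (minus), chr9:36797325-36797354 for Ei24 (minus), chr10:41887256-41887285 for Sesn1 (plus), chr11:40755452-40755481 for Ccng1 (minus) and chr13:96519399-96519428 for Polk (minus). None of these 7 genes had an unadjusted p under 0.05 in either mutant. The windows of Fas, Pidd1, Eda2r, Btg2 and Sesn2 hold no decamer, which says only that these letters are not in those 300 bases, and Perp, Pmaip1, Tnfrsf10b and Trp53inp1 were not searched.
Gadd45a: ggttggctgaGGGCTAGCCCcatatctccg
Aen: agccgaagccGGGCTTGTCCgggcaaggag
Ckap2: ctgtgtctgaAGACATGTCCtgacttgtca
Ei24: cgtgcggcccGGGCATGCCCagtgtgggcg
Sesn1: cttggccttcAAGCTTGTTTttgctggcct
Ccng1: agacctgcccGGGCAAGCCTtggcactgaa
Polk: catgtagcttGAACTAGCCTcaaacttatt

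Among the apoptosis genes, Pmaip1, Pidd1 and Perp had the largest differences in S/S, and Pidd1, Tnfrsf10b and Perp in L/L. In S/S 6 of the 12 were higher at an unadjusted p under 0.05 (5.21% of all genes), and in L/L 4 of the 12 (2.68%). In either mutant 0 were lower (4.93% of all genes in S/S and 0.582% in L/L). Their median difference was 0.31 in S/S (−0.04 over all genes) and 0.13 in L/L (0.02 over all genes). Without both S-set arrays numbered 1 the S/S median was 0.23, and without the wild-type one of them alone it was 0.19.

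Pidd1, the scaffold of the complex that activates caspase-2, read 8.58, 8.66 and 8.71 in S/S, against 7.77, 7.91 and 8.27 in its wild type. In L/L it read 8.98, 8.84 and 8.89, against 8.63, 8.30 and 8.33 in its wild type. The groups did not overlap in either set, and the S-set wild type was the lowest of the 4 groups. The difference was 0.67 in S/S (SE 0.13, 1.59-fold, adjusted p = 0.0965) and 0.48 in L/L (SE 0.13, 1.40-fold, adjusted p = 0.509).

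Perp, a p53-induced membrane protein of cell contacts, read 9.73, 9.65 and 9.64 in S/S, against 8.87, 8.99 and 9.19 in its wild type. The L/L arrays read 9.66, 9.65 and 10.04, against 9.41, 9.54 and 9.35 in its wild type. All mutant arrays lay above their wild type, and 1 L/L array stood above the other 2. The difference was 0.65 in S/S (SE 0.13, adjusted p = 0.0808), the smallest p of the members there, and 0.35 in L/L (SE 0.13, adjusted p = 1).

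Tnfrsf10b, the mouse receptor for the death ligand TRAIL, read 11.35, 11.47 and 11.46 in S/S, against 10.85, 11.08 and 11.18 in its wild type. Levels in L/L were 11.56, 11.44 and 11.47, against 11.13, 11.04 and 10.98 in its wild type. The levels of the mutants were nearly equal, and so were those of the wild types. The differences were 0.39 in S/S (SE 0.10, adjusted p = 0.24) and 0.44 in L/L (SE 0.10, adjusted p = 0.361). Without both S-set arrays numbered 1 the L/L difference was again 0.44 but passed (adjusted p = 0.0395).

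Fas, the receptor for the Fas ligand, read 8.63, 8.75 and 8.64 in S/S, against 8.19, 8.34 and 8.42 in its wild type. In L/L it read 8.95, 8.94 and 9.08, against 8.82, 8.74 and 8.63 in its wild type. No groups overlapped within a set, but the S/S arrays were near the level of the L-set wild type. The difference was 0.36 in S/S (SE 0.10, adjusted p = 0.26) and 0.26 in L/L (SE 0.10, adjusted p = 1).

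Pmaip1, which encodes the BH3-only protein Noxa, read 8.29, 8.38 and 8.30 in S/S, against 7.52, 7.56 and 7.64 in its wild type. The L/L arrays read 8.86, 8.14 and 8.65, against 8.87, 8.41 and 8.24 in its wild type. The S-set groups were tight and far apart, and the L-set groups overlapped over their whole range. The S/S difference was 0.75 (SE 0.18, adjusted p = 0.176) and the L/L difference 0.04 (SE 0.18, adjusted p = 1). Without both S-set arrays numbered 1 the S/S difference was 0.74.

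Eda2r, a receptor of the tumour necrosis factor family encoded on the X chromosome, read 10.14, 10.40 and 10.11 in S/S, against 9.31, 9.87 and 10.02 in its wild type. L/L cells had 10.67, 10.49 and 10.38, against 10.55, 10.37 and 10.11 in its wild type, where the male array was the highest of each group. The S/S groups did not overlap but came close. The difference was 0.48 in S/S (SE 0.17, adjusted p = 0.393), or 0.31 without both S-set arrays numbered 1, and 0.17 in L/L (SE 0.17, adjusted p = 1).

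The other 6 apoptosis genes had differences from −0.12 to 0.27 in S/S and from 0.06 to 0.28 in L/L, and none had an unadjusted p under 0.05. Apaf1, the backbone of the apoptosome, differed by 0.27 in S/S, or 0.14 without both S-set arrays numbered 1, and by 0.08 in L/L. Bbc3, which encodes the BH3-only protein Puma, differed by −0.11 in S/S and 0.06 in L/L. Aen, a nuclease of apoptotic cells, differed by 0.09 and 0.08, Phlda3, an inhibitor of Akt signalling, by 0.11 and 0.08, and Ei24, a membrane protein of the endoplasmic reticulum, by 0.11 and 0.09, each in S/S and in L/L. Dram1, a lysosomal protein that promotes autophagy, differed by −0.12 in S/S and 0.28 in L/L. Without both S-set arrays numbered 1, the S/S difference turned to −0.02 for Aen and was −0.05 for Bbc3 and −0.08 for Dram1. For Phlda3 it was 0.15 and for Ei24 0.07. Without the wild-type array 1 alone, Phlda3 differed by −0.01 and Ei24 by 0.01 in S/S.

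Of the arrest or repair genes 7 of 12 had a difference above 0 in S/S (58.3%, against 42.4% of all genes) and 9 of 12 in L/L (75%, against 55.9%). In S/S 2 of the 12 were higher at an unadjusted p under 0.05 (5.21% of all genes) and in L/L 1 of the 12 (2.68%). In either mutant 0 of the 12 were lower (4.93% of all genes in S/S and 0.582% in L/L). Their median difference was 0.11 in S/S (−0.04 over all genes) and also 0.11 in L/L (0.02 over all genes). The S/S median was 0.12 without both S-set arrays numbered 1 but 0.02 without the wild-type one of them alone.

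Btg2, an antiproliferative cofactor of messenger RNA decay, read 10.48, 10.48 and 10.53 in S/S, against 9.90, 10.10 and 10.15 in its wild type. In L/L it read 10.49, 10.38 and 10.50, against 10.28, 10.11 and 9.90 in its wild type. The mutants of both sets reached nearly the same level, above nearly equal wild types. The difference was 0.45 in S/S (SE 0.11, adjusted p = 0.197) and 0.36 in L/L (SE 0.11, adjusted p = 0.776).

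Sesn2, a stress-induced brake on mTORC1 signalling, read 10.91, 11.26 and 11.11 in S/S, against 10.53, 10.60 and 10.89 in its wild type. The L/L arrays read 10.63, 10.71 and 10.50, against 10.72, 10.62 and 10.54 in its wild type. The S/S arrays were the 3 highest of the 12, though the lowest of them lay next to a wild-type array. The difference was 0.42 in S/S (SE 0.13, adjusted p = 0.301) and −0.01 in L/L (SE 0.13, adjusted p = 1). Without S-set wild-type array 1 alone the S/S difference of Sesn2 was 0.35. Its relative Sesn1 differed by −0.07 in S/S, or −0.21 without both S-set arrays numbered 1, and by −0.23 in L/L, and in L/L all 3 mutant arrays lay below all 3 wild-type arrays.

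DNA repair genes showed no common direction. Ddb2 and Xpc, which recognise damage in nucleotide excision repair, differed by 0.29 and −0.22 in S/S and by 0.09 and 0.02 in L/L, and Xpc by −0.10 in S/S without both S-set arrays numbered 1. Polk, a translesion polymerase, differed by 0.43 in S/S, or 0.24 without both S-set arrays numbered 1, and by 0.30 in L/L. Rrm2b, the p53-inducible ribonucleotide reductase subunit, differed by 0.16 in S/S and −0.25 in L/L. None of these had an unadjusted p under 0.05.

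Of the remaining arrest genes, Gadd45a, which links growth arrest to repair, differed by −0.03 in S/S and 0.15 in L/L. The polo-like kinase genes Plk2 and Plk3 differed by 0.20 and 0.05 in S/S and by 0.16 and 0.11 in L/L, with Plk2 at 0.09 in S/S without both S-set arrays numbered 1. Tigar, which lowers glycolytic flux, differed by −0.10 in S/S and 0.11 in L/L, and the spindle gene Ckap2 by −0.06 in S/S and 0.19 in L/L. Without both S-set arrays numbered 1, the S/S difference was −0.23 for Ckap2, −0.01 for Tigar and 0.14 for Plk3. All 5 had an unadjusted p above 0.05 in both mutants.

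Among the feedback and regulator genes, Mdm2 had the largest difference in S/S and Pml in L/L, and Pml was higher at an unadjusted p under 0.05 in both. In S/S 3 of the 6 were higher at an unadjusted p under 0.05 (5.21% of all genes), and in L/L 1 of the 6 (2.68%). Their median difference was 0.41 in S/S, or 0.22 without both S-set arrays numbered 1, and 0.02 in L/L. Without the S-set wild-type array 1 alone the S/S median was 0.2345. Over all genes the median was −0.04 in S/S and 0.02 in L/L. The L/L median of these 6 genes ran from −0.04 to 0.11 when single arrays were left out.

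Mdm2, the ligase that degrades p53 and is itself a p53 target, read 11.33, 11.44 and 11.31 in S/S, against 10.58, 10.47 and 10.76 in its wild type. Levels in L/L were 11.11, 10.91 and 10.86, against 11.19, 10.79 and 10.46 in its wild type. Every S/S array was above every other array of the series, and the L-set groups overlapped. The S/S difference was 0.76 (SE 0.16, 1.69-fold, adjusted p = 0.102), and it was 0.76 also without both S-set arrays numbered 1. The L/L difference was 0.15 (SE 0.16, adjusted p = 1).

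Mdm4, the inhibitor of p53 that pairs with Mdm2, read 8.91, 9.08 and 8.35 in S/S, against 7.86, 8.49 and 8.70 in its wild type. In L/L it read 9.11, 9.15 and 8.88, against 9.15, 9.19 and 9.06 in its wild type. Mutant and wild type overlapped in both sets. The difference was 0.43 in S/S (SE 0.21, adjusted p = 0.511), or 0.12 without both S-set arrays numbered 1, and −0.09 in L/L (SE 0.21, adjusted p = 1).

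Pml, the organiser of the nuclear bodies in which p53 is modified, and an interferon-inducible gene as well, read 10.46, 10.59 and 10.50 in L/L, against 9.95, 9.95 and 9.79 in its wild type. In S/S it read 10.19, 10.32 and 10.38, against 9.75, 9.94 and 10.04 in its wild type. The wild types of the sets were level with each other, and both mutants lay above them. The difference was 0.62 in L/L (SE 0.11, 1.53-fold, adjusted p = 0.0924), the smallest p of the members there, and 0.38 in S/S (SE 0.11, adjusted p = 0.257). Without both S-set arrays numbered 1 the L/L difference was again 0.62 but passed (adjusted p = 0.00874).

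Trp53inp1, a p53-induced protein that promotes p53 phosphorylation, read 11.52, 11.83 and 11.39 in S/S, against 10.49, 11.18 and 11.41 in its wild type. The L/L arrays read 11.96, 11.84 and 11.74, against 12.06, 11.82 and 11.59 in its wild type. The S/S difference of 0.55 (SE 0.20, adjusted p = 0.405) leaned on the low wild-type array 1 and was 0.31 without both arrays of that number. The L/L difference was 0.03. Ccng1, a cyclin that brings a phosphatase to Mdm2, differed by 0.12 in S/S and 0.02 in L/L, and the RNA-binding gene Zmat3 by 0.17 in S/S and −0.02 in L/L. Without both S-set arrays numbered 1 these S/S differences were 0.02 and 0.01.

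**Figure D2:**
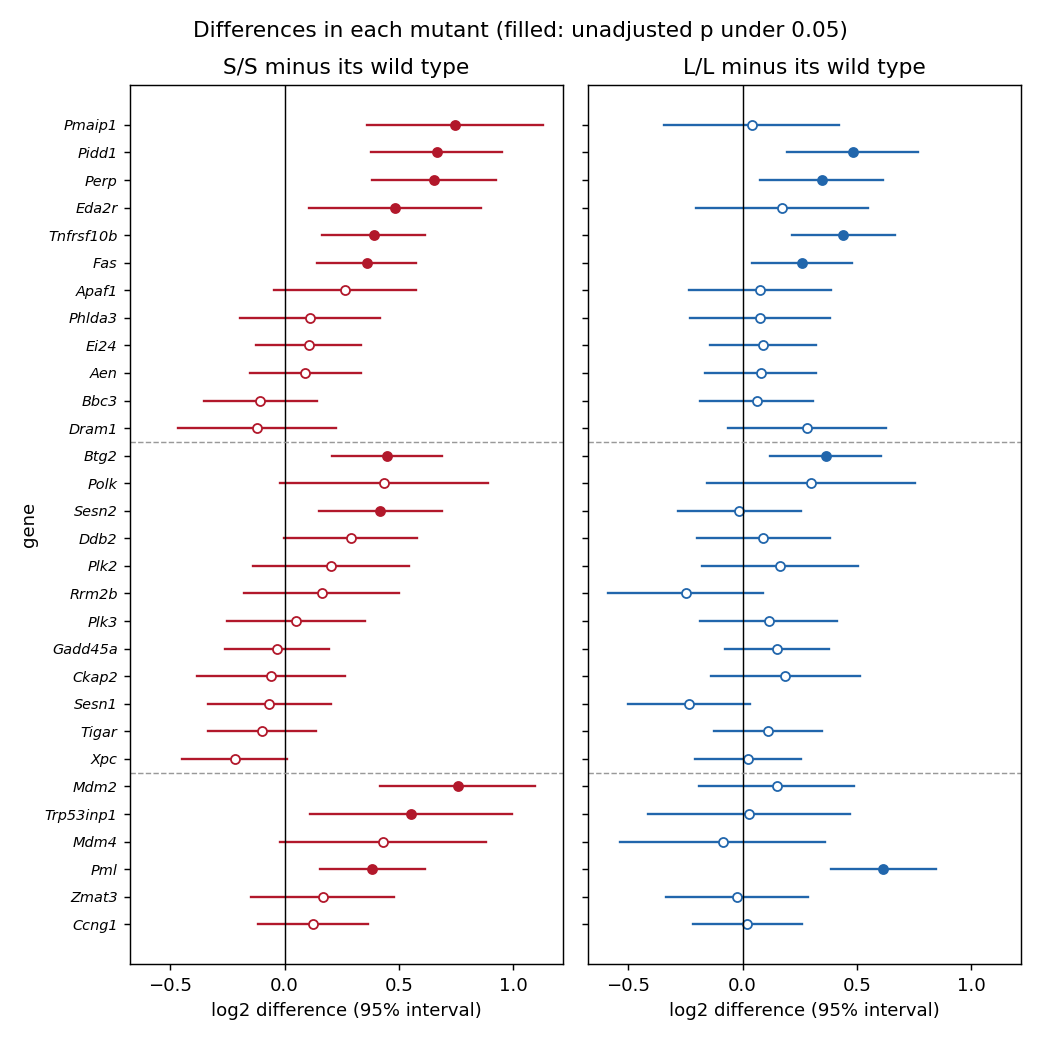
Log2 difference of each member (points) with its 95% interval from the model (bars), S/S minus its wild type on the left and L/L minus its wild type on the right. Filled points have an unadjusted p under 0.05, which 11 members do in S/S and 6 in L/L, and dashed lines separate apoptosis, arrest or repair, and feedback genes.

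An effect common to both mutants, as the mean of their differences, was tested in the same model, a comparison chosen after the values were seen. Pml and Pidd1 passed with limma, as did 0.0853% of all genes. Pml rose by a mean of 0.50 (SE 0.08, 1.42-fold, adjusted p = 0.0251) and Pidd1 by 0.57 (SE 0.09, 1.49-fold, adjusted p = 0.0409), each higher in all 6 mutant arrays than in all 3 arrays of the matched wild type. Perp (0.50) and Tnfrsf10b (0.42) had an adjusted p of 0.0555 each, and Btg2 (0.41) of 0.0928. When single arrays were left out, Pml still passed in 4 of 12 fits and Pidd1 in 3 of 12, and without both male arrays neither passed (adjusted p = 0.109 and 0.105). Without both S-set arrays numbered 1 both passed, Pml at 0.49 (adjusted p = 0.0162) and Pidd1 at 0.54 (adjusted p = 0.0416).

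**Figure D3:**
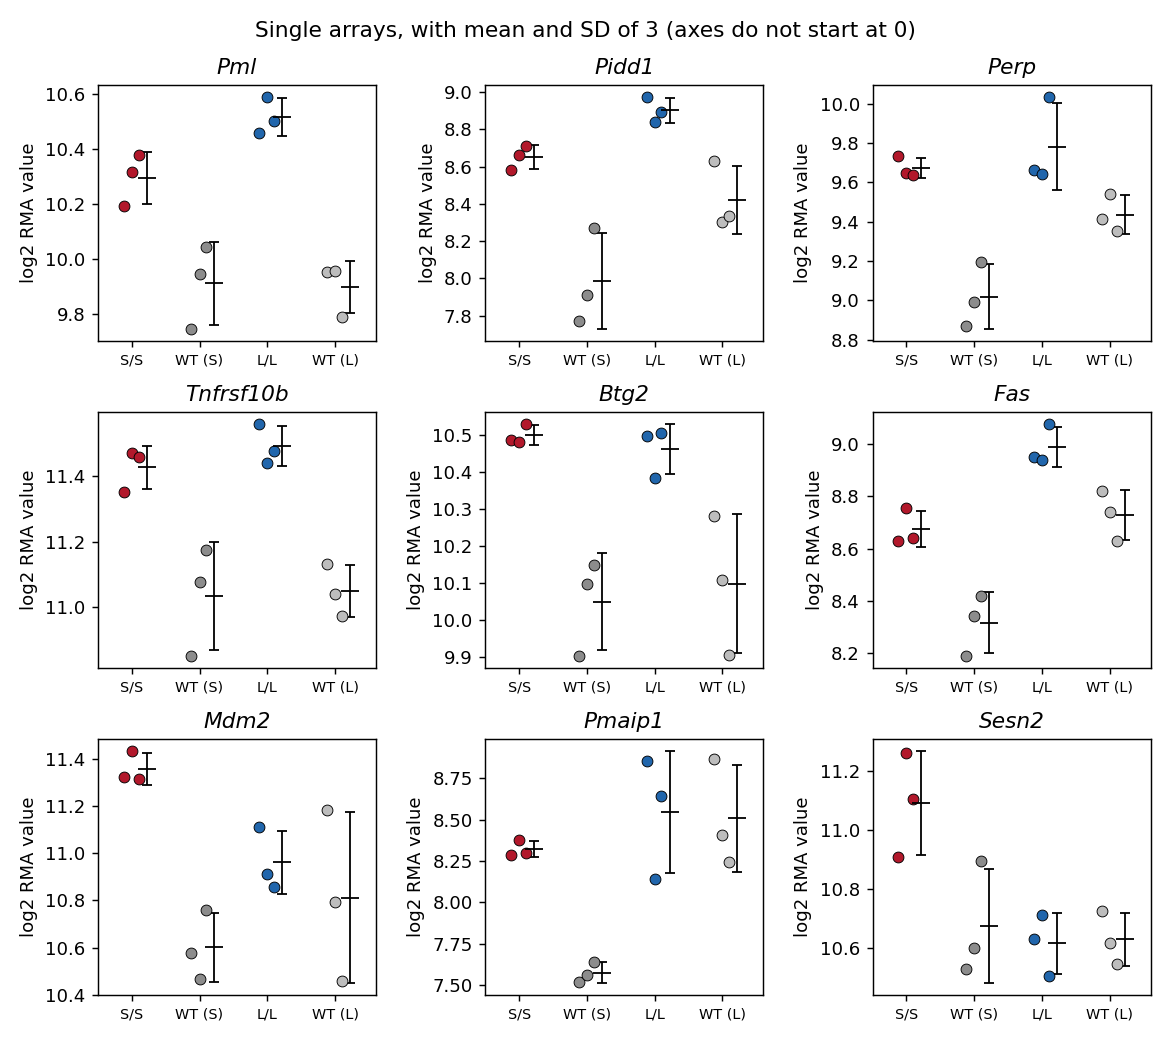
Log2 RMA values of 9 members in single arrays (points), with the mean and SD of each group of 3 arrays (bars); the vertical axes do not start at 0. In the first 6 panels every mutant array is above its matched wild type in both sets, while in the Mdm2, Pmaip1 and Sesn2 panels this holds for S/S and the L-set groups overlap.

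Whether the mutants differed in their effect was tested as the S/S difference minus the L/L difference. With limma 0 of 30 members passed, as did 0.015% of all genes. At an unadjusted p under 0.05, 3 members had a larger effect in S/S (2.71% of all genes) and 0 in L/L (3.79%). These were Pmaip1, with a difference of 0.71 between the effects (95% interval 0.16 to 1.25, adjusted p = 0.714), Mdm2, with 0.61 (0.13 to 1.09, adjusted p = 0.714), and Sesn2, with 0.43 (0.05 to 0.81, adjusted p = 0.751). For the 6 genes that leaned upwards in both mutants every interval held 0. Perp differed by 0.31 between the effects (−0.07 to 0.69) and Pidd1 by 0.18 (−0.22 to 0.59). Tnfrsf10b differed by −0.05 between the effects (−0.37 to 0.27), Btg2 by 0.09 (−0.26 to 0.43), Fas by 0.10 (−0.21 to 0.41) and Pml by −0.23 (−0.56 to 0.09), so differences as large as the ends of these intervals remain possible.

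The wild types of the sets, which share a genotype, also differed in these genes. In the L-set wild type against the S-set wild type, 6 members were higher past the threshold (3.54% of all genes) and 2 lower (5.17%). The higher ones were Pmaip1 (0.93, adjusted p = 0.00791), Fas (0.41, 0.0248), Trp53inp1 (0.80, 0.0309), Mdm4 (0.78, 0.0353), Gadd45a (0.39, 0.0369) and Eda2r (0.61, 0.0469). S-set wild-type array 1 was well below its group for Trp53inp1 (10.49 against 11.18 and 11.41), Mdm4 (7.86 against 8.49 and 8.70) and Eda2r (9.31 against 9.87 and 10.02). It lay closer to its group for Pmaip1, Fas and Gadd45a. Leaving that array out would raise the S-set wild-type mean of Trp53inp1, Mdm4 and Eda2r, so these 3 differences would be smaller. No fit without it is given for this comparison, so whether they would still pass is not shown. The members lower in the L-set wild type were Plk3 and Dram1. Plk3 read 8.29, 8.23 and 8.61 in the L-set wild type, against 9.10, 9.17 and 9.26 in the S-set wild type (−0.80, adjusted p = 0.00568). It read 8.63, 8.43 and 8.41 in L/L and 8.97, 9.24 and 9.47 in S/S, so that the gene followed the set and not the mutation.

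Dram1 read 7.58, 7.68 and 8.17 in the L-set wild type, against 8.48, 8.40 and 8.60 in the S-set wild type (−0.68, adjusted p = 0.0214), with 7.82, 8.16 and 8.29 in L/L and 8.26, 8.34 and 8.50 in S/S. Gadd45a read 8.85, 8.61 and 8.64 in the L-set wild type, against 8.35, 8.40 and 8.18 in the S-set wild type, with 8.91, 8.88 and 8.77 in L/L and 8.33, 8.32 and 8.18 in S/S. All 6 L-set arrays lay above all 6 S-set arrays for Gadd45a, and the mutants of the sets overlapped slightly for Dram1.

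The S/S levels can therefore be placed on the L set, within each probe set. Of the 11 genes with an unadjusted p under 0.05 in S/S, the S/S mean lay within the range of the 6 L-set arrays for 8, above it for Mdm2 and Sesn2, and below it for Trp53inp1. The S-set wild-type mean lay below that range for 6 of the 11, Pmaip1, Perp, Fas, Pidd1, Eda2r and Trp53inp1, and within it for 5. Over all 30 members the S-set wild type was below the range for 18, within it for 9 and above it for 3, while S/S was below it for 8, within it for 18 and above it for 4. The same placement was not computed over all genes, so these counts do not set the members apart from other genes. In the L-set wild type against the S-set wild type, 3.54% of all genes were higher and 5.17% lower past the threshold. The S-set wild-type mean also includes the array that stood apart. Between the sets, embryo, culture and array handling cannot be told apart.

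Averaged over the 12 apoptosis genes and set relative to the mean of 12 arrays, the level was 0.04 ± 0.06 in S/S and −0.26 ± 0.16 in its wild type, and 0.21 ± 0.06 in L/L and 0.01 ± 0.07 in its wild type (SD, n = 3 each). The 12 arrest or repair genes averaged 0.05 ± 0.06 in S/S and −0.07 ± 0.09 in its wild type, and 0.05 ± 0.07 in L/L and −0.03 ± 0.06 in its wild type. The 6 feedback genes averaged 0.11 ± 0.12 in S/S and −0.29 ± 0.26 in its wild type, and 0.15 ± 0.05 in L/L and 0.03 ± 0.14 in its wild type. S-set wild-type array 1 was the lowest of the 12 for all 3 roles. Mutant and wild-type arrays did not overlap in the S set for any of the 3 roles, but they came close. The nearest S/S and wild-type arrays read 0.0109 and 0.0083 for the arrest or repair genes, and −0.0128 and −0.0496 for the feedback genes. In the L set they did not overlap for the apoptosis genes and overlapped for the others.

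Markers of macrophages and blood cells were higher in S/S, though none passed over all genes. Their 13 genes averaged 0.35, 0.37 and 0.45 in S/S, against −0.38, −0.25 and −0.14 in its wild type. In 11 of 13 all S/S arrays lay above all wild-type arrays (5.49% of all genes) and in 1 below them (6.29%). At an unadjusted p under 0.05 only 1 of the 13 was higher in S/S (5.21% of all genes) and 1 lower (4.93%). In L/L they averaged −1.17, 0.34 and 0.20, against −0.83, −0.03 and 1.08 in its wild type, with 0 of 13 not overlapping upwards (9.71% of all genes). Their median L/L difference was −0.33. Of 10 endothelial markers 3 were higher in S/S at an unadjusted p under 0.05 (5.21% of all genes) and 1 lower (4.93%), led by Emcn (1.62), with Pecam1 at −0.18, and 0 in L/L. Of 12 fibroblast markers, 7 had all L/L arrays below all wild-type arrays (5.1% of all genes) and 0 above them (9.71%). Their median L/L difference was −0.13 (0.02 over all genes), and 0 had an unadjusted p under 0.05. In S/S 0 of the 12 separated in either direction, and the median was 0.05. The macrophage marker Lyz2 read 9.31 to 12.5 over all arrays and Hbb-bh1, a globin gene of embryonic red cells, 4.17 to 4.82. In these bulk samples a change in the share of a cell type and one in RNA per cell cannot be told apart. The part of these cell markers in the S/S and L/L differences was not tested.

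**Figure D4:**
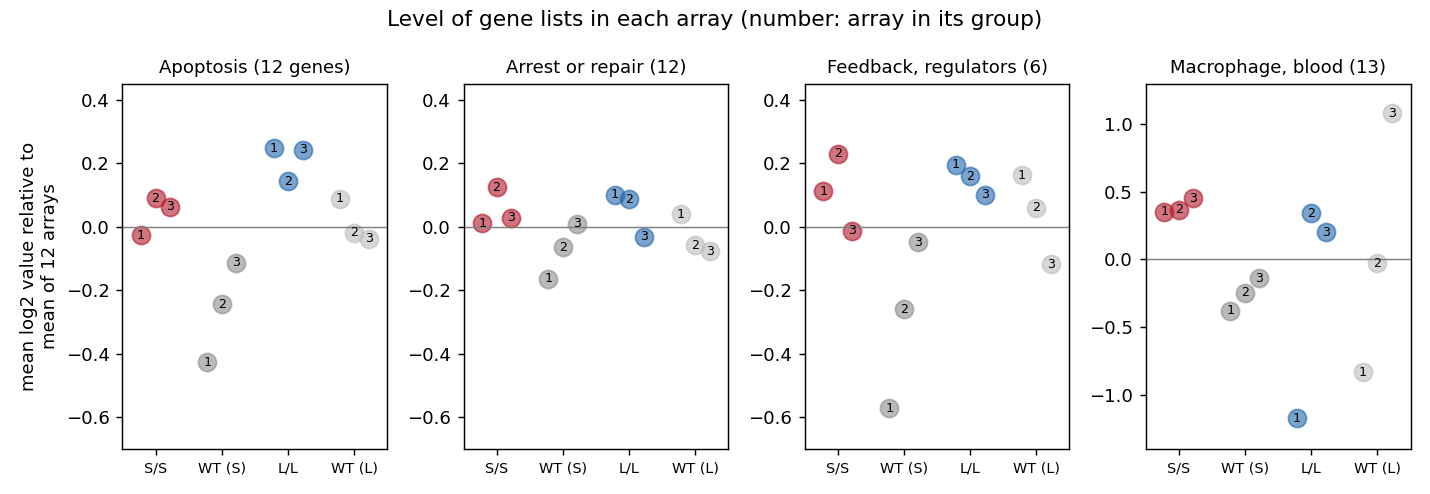
Mean log2 level of the members of each role, and of 13 macrophage and blood cell markers, relative to the mean of 12 arrays, in single arrays (numbered points) of the 4 groups. In the apoptosis panel every mutant array is above its matched wild type in both sets, and the marker panel, on a wider axis, separates S/S (0.35 to 0.45) from its wild type (−0.38 to −0.14) but not L/L from its own.

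Further genes of the pathway were followed as lists, and none of them passed alone in either mutant. Of 25 upstream regulators of p53, 2 were higher and 0 lower at an unadjusted p under 0.05 in S/S (median 0.12), and 2 higher and 1 lower in L/L (median −0.04). These are shares of 8% upwards in each mutant, where 5.21% of all genes lay upwards in S/S and 2.68% in L/L, and 4.93% and 0.582% downwards. The counts of the next lists stand beside the same shares of all genes. The 4 genes of smallest p are named for each list and mutant. In S/S these were Hipk2, a kinase that phosphorylates p53 (0.48, SE 0.12), and Ppp1r13l, which encodes the p53 inhibitor iASPP (0.38, SE 0.12), followed by Npm1 (0.26) and Atr (0.48). In L/L they were the checkpoint kinase genes Chek1 (0.86, SE 0.35) and Chek2 (0.33, SE 0.14) and, lower, Ppp1r13b (−0.24, SE 0.11), followed by Ppp1r13l (0.25).

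Of 23 further p53 targets, 5 were higher and 2 lower at that threshold in S/S (median 0.12), and 3 higher and 0 lower in L/L (median 0.04). Sfn, the 14-3-3 sigma gene of cell cycle arrest, differed by 0.82 in S/S (SE 0.17, adjusted p = 0.108), with Ptprv at 0.42, the repair nuclease gene Ercc5 at 0.40 and Steap3, a ferrireductase gene, at −0.53. In L/L the leading genes were Gtse1, which encodes a negative regulator of p53 (0.39, adjusted p = 0.639), Siva1 (0.35), Cdc42bpg (0.36) and Psrc1 (0.24). Gtse1 and Psrc1 are also genes of dividing cells.

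Of 19 genes of the BCL2 family and the caspases, 2 were higher in S/S at that threshold, the survival gene Bcl2 (0.42, SE 0.13) and Casp8 (0.21, SE 0.09), and 1 in L/L, Bok (0.24, SE 0.11). None of the 19 was lower at that threshold. The medians of this group were 0.04 in S/S and 0.05 in L/L. In S/S Hrk (−0.25) and Xiap (0.40) came next by p, and in L/L Bid (0.18), Casp2 (0.19) and Casp8 (0.08).

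The calls depended on how much each array counted. Array quality weights gave S-set wild-type arrays 1, 2 and 3 weights of 0.0774, 5.88 and 0.794. The weighted S/S comparison therefore rested mostly on wild-type array 2. With these weights 9 of 30 members passed in S/S (2.08% of all genes) and 4 of 30 in L/L (1.69% of all genes). In S/S these were Pidd1 (0.71, adjusted p = 0.00694), Mdm2 (0.87, 0.0088), Perp (0.64, 0.0122), Sesn2 (0.51, 0.0223), Tnfrsf10b (0.36, 0.0315), Pml (0.37, 0.0359), Btg2 (0.40, 0.038), Fas (0.34, 0.0409) and Pmaip1 (0.76, 0.0427). In L/L they were Pml (0.59, 0.000456), Tnfrsf10b (0.45, 0.00213), Pidd1 (0.55, 0.00726) and Btg2 (0.36, 0.0213). The weights rest on 3 arrays a group and were themselves estimated from these arrays.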

How the data were processed

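The deposited table holds log2 RMA values of 12 Affymetrix Mouse Gene 1.0 ST arrays, which the authors made with Partek per the series design text: background-corrected, normalized between arrays and summarised per probe set. The Partek version, the arrays normalized together and the genome build are not given in the sources used here. Of 35556 rows, 21789 had a single symbol in the platform annotation, and per gene the probe set with the highest mean over 12 arrays was kept (19938 genes, no filter on dim values, no member with a mean under 6). Promoter sequences are from RefSeq (GRCm38.p6).

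One linear model with 4 group means was fitted across all genes with limma 3.58.1 in R 4.3.3 (8 residual and 5.19 prior degrees of freedom), with two-sided tests and Benjamini-Hochberg adjustment within each comparison. It was tested on simulated data. The number of arrays limits the precision. All members found are named. Values in single arrays are given for Mdm2, Mdm4, members passing in a planned comparison, the 6 members of smallest p in each mutant and the 3 for the difference of effects, and the 4 genes of smallest p are named in each further list. Fibroblast, macrophage, endothelial and epithelial markers were read as levels. The members and lists were chosen with earlier results of these data known. Alternatives are given after the report.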

Additional observations from a re-analysis of the deposited data

How the results depend on the processing

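The 11 members with an unadjusted p under 0.05 in S/S and the 6 in L/L kept their direction under all 21 alternatives, and the other members changed sign in 14 of 399 values in S/S and 18 of 504 in L/L. The 11 and the 6 were picked by these same values. For all of them but Trp53inp1 in S/S, mutant and wild-type arrays did not overlap, so leaving arrays out could not turn the sign. The kept direction is therefore no test of them. When single arrays were left out, the number of members passing ranged from 0 to 1 in S/S (Mdm2 or Pidd1), from 0 to 1 in L/L (Pml) and from 0 to 4 for the mean of the effects. The median of the apoptosis genes then ranged from 0.1899 to 0.3903 in S/S and from 0.0774 to 0.213 in L/L, and that of the arrest or repair genes in S/S from 0.0213 to 0.1377, of the feedback genes from 0.2345 to 0.528 in S/S and from −0.0393 to 0.1133 in L/L, and of all members in S/S from 0.1438 to 0.3126. In S/S the lowest of these medians came without S-set wild-type array 1. After quantile normalization 1 member passed in L/L. Without both male arrays 1 member passed in S/S and 0 for the mean of the effects. Without both S-set arrays numbered 1, 2 members passed in L/L, Pml and Tnfrsf10b. With array quality weights 9 passed in S/S, 4 in L/L and 7 for the mean of the effects, and 13 had an unadjusted p under 0.05 in L/L. With genes of a mean of at least 6, where fewer genes are tested, 4 passed for the mean of the effects. The cause of the other changes was not tested. An intensity trend, the mean of all probe sets, or each set fitted alone changed no count by over 1.5 times, though with the trend Pidd1 missed the threshold for the mean of the effects (adjusted p = 0.0501). The difference between the effects passed for 0 members in every alternative run, and each set fitted alone gives no value for it.

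Deviations of same-numbered samples from their group means correlated at 0.39, 0.47 and −0.12 in the S set and at 0.60, 0.06 and 0.36 in the L set, so the numbers were not taken to pair the samples. With the replicate block 0 members passed in S/S and in L/L, 2 passed for the mean of the effects, and 13 had an unadjusted p under 0.05 in S/S and 7 in L/L.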
